A study of Mus musculus with 2 samples.

Results

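Transcripts of myocardin, serum response factor (SRF) and other regulators of smooth muscle were measured in the ureters of mouse embryos with conditional loss of Smad4 (Smad4cKO) and of controls. The genes are Myocd, Srf, Mkl1, Mkl2, Tshz2, Tshz3, Gata6, Mef2c and Tead3, taken by gene name from the arrays' own annotation, 9 of 31791 gene names there, and they have 14 probes among 39429. Mkl1 and Mkl2 are now named Mrtfa and Mrtfb. All 9 genes were found, 5 of them with 1 probe and 4 with 2 or 3, and each probe was printed as 1 spot. All probes with these names were taken, without use of their measured values. The brightest probe then stood for its gene, and the members were chosen with earlier results of these data known.

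Total RNA from ureters dissected at stage E14.5 was measured on 2 two-colour Agilent arrays, each with a Smad4cKO and a control sample of the NMRI strain. The Smad4cKO embryos were Tbx18(cre/+);Smad4(fl/fl) and the controls Tbx18(+/+);Smad4(fl/+), so each control carried 1 floxed Smad4 allele, and the mutants alone carried Cre at the Tbx18 locus. Cre made there acts in Tbx18-expressing mesenchyme, which lies around the ureteric epithelium. Effects of the Cre allele and of Smad4 loss cannot be told apart. Array 1 held a female pair with Smad4cKO in green, and array 2 a male pair with Smad4cKO in red. Sex and dye therefore changed together. Neither the number of embryos per RNA nor their litters are stated. The limma errors combine the spread between these 2 arrays with that pooled over other genes. They cannot be read as a spread between embryos or litters.

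Smooth muscle genes of the contractile type are switched on by SRF, a DNA-binding protein that recognises the CArG box, together with a coactivator. Myocardin, made from Myocd, is the coactivator of the smooth and cardiac muscle programme, whereas the myocardin-related proteins of Mkl1 and Mkl2 are held in the cytoplasm by monomeric actin and link SRF to the cytoskeleton. In the mouse ureter the coat of smooth muscle forms from mesenchyme next to the epithelium, and the zinc finger protein TSHZ3 is known there as a factor needed for Myocd expression and muscle differentiation. Tshz2 is its relative, and GATA6, MEF2C and TEAD3 are transcription factors that act on muscle genes in other organs.

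The first 30 of 60 bases are shown for the probes at both ends of the order of ratios (Myocd and Tshz3) and for those of Srf and Mkl2, whose probes lie at different places of the gene and gave different ratios. The Myocd probe lies on the minus strand of chromosome 11, 64991930 to 64991989 (mm9, as in the scanner files). The Tshz3 probe lies on the plus strand of chromosome 7, 37557872 to 37557931. The brightest Srf probe, for which the file places 8 bases only, lies on the minus strand of chromosome 17, 46683788 to 46683795, and the dimmer one at 46685306 to 46685365. Of the Mkl2 probes on the plus strand of chromosome 16, the brightest lies at 13417529 to 13417588. Another lies at 13409769 to 13412310, a stretch of 2542 bases for a probe of 60, so its placement skips bases in between. It is called the probe over an intron here for that gap alone, and its bases are not taken to lie within an intron. The third lies at 13332950 to 13333009 and is annotated to a transcript variant of its own. No gene models of build mm9 were used here, so exons and untranslated regions are not given.
Myocd: taatctgaattcccctatggatctccactt
Tshz3: agaaattaaaggatgctcaaagtaaactca
Srf, brightest probe: ggtgtatccctaattaagtgcctctagggg
Srf, dimmer probe: ccagctgctttacttaagagttgattttga
Mkl2, brightest probe: tagtggcagtattgtagctgatcgggaaat
Mkl2, probe over an intron: agagatttccttcccaataaaagaagagcc
Mkl2, probe of the variant: cacatctctcatggtgttgaaaattggcac

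Across the arrays, 68.3% to 70.3% of 43020 spots were well above background in each channel, median signal over background lay between 8.79 and 10.8, and 0 spots were saturated. All 14 probes were well above background in all 4 channels, and 0 of them were marked as outliers. The 6 smooth muscle markers and the 15 urothelium markers listed for the tissue check all passed the filter on dim probes. The number of arrays limits the precision.

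Each ratio puts the channel labelled Smad4cKO over that labelled control, as the dyes are assigned in the labels. The authors' deposited table runs the other way under titles that name Smad4cKO first: its signed fold for Myocd is -2.11 on array 1 and -3.57 on array 2. The loci at which the genotypes differ do not settle this. Smad4 itself gave log2 ratios of -0.69 on array 1 and -0.14 on array 2, and Tbx18 gave 0.07 and 0.81, neither past limma (adjusted p = 1.00 for each). The labels do not give the deleted exons of Smad4, so its probe may lie outside them. With the dyes assigned the other way on both arrays, each brighter below would read dimmer and the reverse, with sizes and tests as they are.

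Of the 9 genes, Myocd alone reached 1.5-fold on each array with 1 sign. Its normalized intensity was 1209 in the female and 1866 in the male channel labelled Smad4cKO, against 647 in the female and 582 in the male channel labelled control. Both channels labelled Smad4cKO lay above both channels labelled control, with the male pair farther apart than the female pair. The log2 ratio was 0.90 on array 1 and 1.68 on array 2, or 1.87-fold and 3.21-fold. The mean was 1.29 ± 0.21 (limma's moderated SE, n = 2), or 2.45-fold, with a 95% interval of 1.72-fold to 3.48-fold from the same fit. The SE borrows most of its weight from other genes, with 1 residual and 4.89 prior degrees of freedom.

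With Benjamini-Hochberg adjustment over all 21238 genes, Myocd did not pass limma's threshold of 0.05 (adjusted p = 0.176, unadjusted p = 8.36e-04). It was past the threshold with Feature Extraction's processed signals in place of normexp and loess (mean 1.45, adjusted p = 0.00335), with the authors' deposited values (1.45, adjusted p = 0.0201) and with limma's trend and robust options (1.29, adjusted p = 3.37e-10). The deposited values carry nearly the same ratios as the processed signals, so those settings are not separate results. The trend and robust options used the same ratios as the main fit. Their smaller p came only from the spread borrowed from other genes (SE 0.15 against 0.21). Over the 11 alternative settings that allow a test, the mean log2 ratio of Myocd lay between 1.29 and 1.45 and its adjusted p between 3.37e-10 and 1.00. By mean log2 ratio it stood at position 16 from the brightest of the 21238 genes, and 0.141% of them had a larger absolute mean. The scanner software's error model, which covers error within an array, gave the authors' deposited log10 ratio of Myocd, turned to Smad4cKO over control, as 0.322 ± 0.069 on array 1 (deposited p = 2.65e-06). On array 2 the deposited log10 ratio of Myocd was 0.549 ± 0.080, and the software's p for that spot was 6.04e-12.

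The 1.5-fold rule called 1 of the 9 genes brighter, against 0.49% of all tested genes, and 0 dimmer, against 0.523%. Limma called 0 of the 9 brighter and 0 dimmer, against 0.0% and 0.00471% of all tested genes. With processed signals it called 1 brighter and 0 dimmer, against 0.678% and 0.763%, with the authors' deposited values 1 brighter, against 0.339%, and with the trend and robust options 1 brighter and 0 dimmer, against 1.4% and 1.92%. At an unadjusted p under 0.05 it held 1 of the 9, Myocd, where 2.14% of all tested genes were brighter and 2.97% dimmer. In whole ureters, a change in the number of cells of a type and a change in RNA per cell cannot be told apart.

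**Figure D1:**
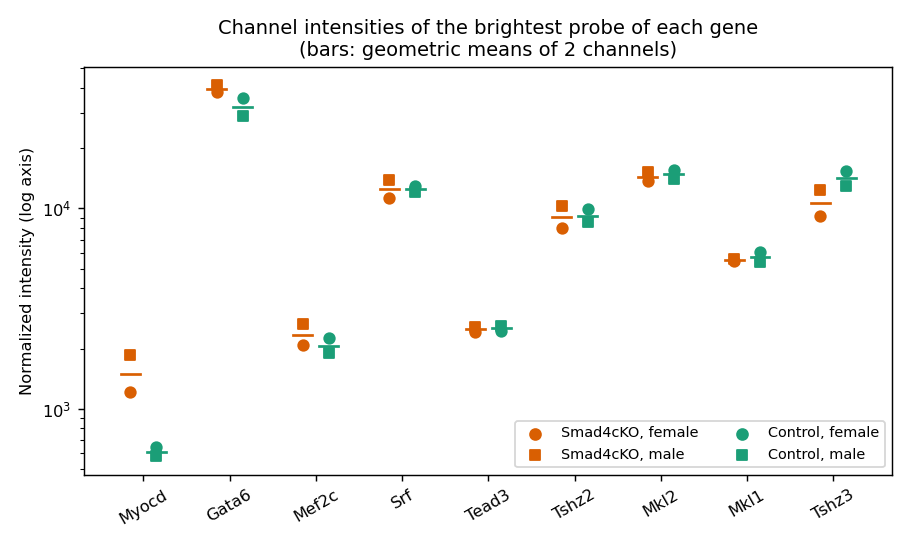
Normalized intensity (log axis) of the brightest probe of each gene in the 4 channels, with the channels labelled Smad4cKO (orange) left of those labelled control (green), circles for the female pair, squares for the male pair and bars for the geometric mean of 2 channels. Both Smad4cKO values of Myocd, 1209 and 1866, lie above both control values, 647 and 582, while the values of Srf, Mkl1, Mkl2, Tshz2, Mef2c and Tead3 overlap between the groups.

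Srf itself passed neither rule. The brightest Srf probe had intensities of 11270 and 13880 in the female and male channels labelled Smad4cKO, against 12916 and 12056 in the female and male channels labelled control. The groups overlap, with Smad4cKO lower in the female pair and higher in the male pair. Its log2 ratios were -0.20 and 0.20 on arrays 1 and 2, with a mean of 0.0032 ± 0.15 and a 95% interval of 0.771-fold to 1.30-fold (limma adjusted p = 1.00). The dimmer Srf probe gave -0.51 on array 1 and 0.65 on array 2, the widest spread between arrays of the 14 probes, and a mean of 0.07.

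The genes of the myocardin-related coactivators passed neither rule. Mkl1 had intensities of 5446 and 5594 in the female and male channels labelled Smad4cKO, against 6092 and 5425 in the female and male channels labelled control. Its mean log2 ratio was -0.06 ± 0.14, with a 95% interval of 0.760-fold to 1.21-fold. Its second probe gave a mean of 2.69e-04, with -0.25 and 0.25 on the arrays. Mkl2 had intensities of 13624 and 15258 in the channels labelled Smad4cKO, against 15530 and 14046 in those labelled control, female first. Its mean was -0.03 ± 0.14, with a 95% interval of -0.39 to 0.32 on the log2 scale. For both genes the groups overlap and the sign of the ratio differed between arrays.

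The Mkl2 probes differ in brightness and in sign, though none was past a threshold. The probe over an intron gave 171 and 160 in the channels labelled Smad4cKO, against 166 and 214 in those labelled control, with signal over background between 2.49 and 4.47. It is the 1 probe of the 14 with the green channel brighter on both arrays, at 0.04 on array 1 and -0.41 on array 2. The variant's probe gave 276 in both channels labelled Smad4cKO, against 288 and 229 in those labelled control, with -0.07 and 0.27 on the arrays. The variant's probe had a signal over background between 3.60 and 4.94, and the brightest probe between 235.6 and 273.9.

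Tshz3, the teashirt gene known from ureter muscle, stood at the other end of the order from Myocd. Its intensities were 9212 and 12308 in the female and male channels labelled Smad4cKO, against 15352 and 13005 in those labelled control. Both Smad4cKO values lie below both control values, but nearly all of the difference is in the female pair. The log2 ratio was -0.74 on array 1 and -0.08 on array 2, with a mean of -0.41 ± 0.19 (limma unadjusted p = 0.0737, adjusted p = 1.00) and an interval of 0.547-fold to 1.04-fold. The authors' deposited log10 ratio, turned to Smad4cKO over control, was -0.229 ± 0.065 on array 1 (deposited p = 4.09e-04) and -0.0144 ± 0.061 on array 2 (deposited p = 0.815).

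Tshz2 passed neither rule. The brightest Tshz2 probe, on chromosome 2 at 169713711 to 169713770, gave 7956 and 10236 in the channels labelled Smad4cKO, against 9918 and 8522 in those labelled control. The groups overlap, with ratios of opposite sign, -0.32 and 0.26, and a mean of -0.03 ± 0.18. The second Tshz2 probe gave -0.14 and 0.03. The difference between Tshz2 and Tshz3 was not tested.

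**Figure D2:**
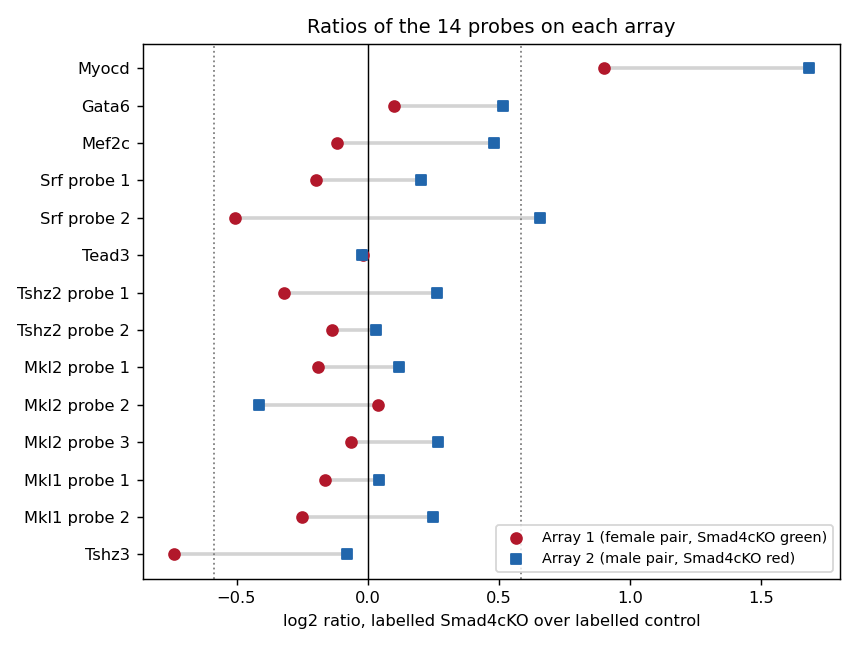
Log2 ratio of labelled Smad4cKO over labelled control for each of the 14 probes, with circles for array 1 (female pair), squares for array 2 (male pair), grey bars joining the 2 values of a probe and dotted lines at 1.5-fold in either direction. Probes of a gene are numbered from the brightest. Myocd is past the upper line on both arrays (0.90 and 1.68), and Tshz3 is past the lower line on array 1 only (-0.74).

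Gata6 was brighter on both arrays without passing a threshold. It gave intensities of 37961 and 41181 in the channels labelled Smad4cKO, against 35397 and 28785 in those labelled control. The groups do not overlap, and the ratio lay mostly in the male pair, with 0.10 on array 1 and 0.52 on array 2. The mean was 0.31 ± 0.16 (limma unadjusted p = 0.0958, adjusted p = 1.00), with an interval of 0.950-fold to 1.62-fold.

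Mef2c, which encodes a MADS-box factor of muscle and endothelium, had 2084 and 2646 in the channels labelled Smad4cKO, against 2263 and 1896 in those labelled control. Its probe on chromosome 13 is placed at 83772788 to 83775025, a stretch of 2238 bases. The groups overlap, with log2 ratios of -0.12 and 0.48 and a mean of 0.18 ± 0.18. Tead3, a partner of the YAP and TAZ coactivators, was the most even of the 9. It had 2427 and 2557 in the channels labelled Smad4cKO, against 2457 and 2597 in those labelled control, with a mean of -0.02 ± 0.13 and an interval of 0.790-fold to 1.23-fold.

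From the brightest down, the mean log2 ratios ran in the order Myocd, Gata6, Mef2c, Srf, Tead3, Tshz2, Mkl2, Mkl1 and Tshz3. Myocd stood 0.98 above Gata6, more than 2 SE of that difference (SE 0.26). The other 7 pairs of neighbours differed by less than 2 SE. Among the 8 genes other than Myocd, the smallest unadjusted p was 0.0737. The 3 genes whose groups do not overlap were Myocd and Gata6, with Smad4cKO above, as in 14.2% of all tested genes, and Tshz3, with Smad4cKO below, as in 14.1%.

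The sign of the ratio changed between arrays for 5 of the 9 genes, against 60.3% of all tested genes. In these 5 of the 9 genes (Srf, Mkl1, Mkl2, Tshz2 and Mef2c) the red channel was the brighter one on both arrays, against 28.6% of all tested genes. The same held for 9 of the 14 probes. Of the 12799 tested genes with opposite signs, 6065 had the red channel brighter on both arrays. Red was control on array 1 and Smad4cKO on array 2. The part of the dye in these values was not tested, and dye and sex cannot be told apart. The median log2 ratio of the 9 genes was -0.16 on array 1 and 0.20 on array 2, against 0.0088 and -0.0075 over all tested genes.

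**Figure D3:**
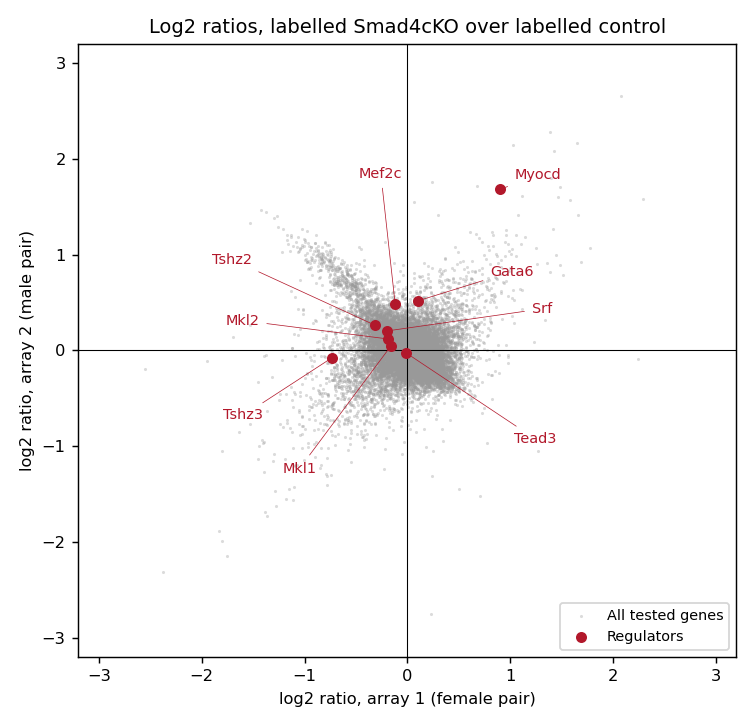
Log2 ratio on array 2 (male pair) against that on array 1 (female pair), for all 21238 tested genes (grey) and the 9 regulators (red, labelled). Myocd lies far out in the upper right quadrant, Gata6 lies in the same quadrant near the centre, and Srf, Mkl1, Mkl2, Tshz2 and Mef2c lie in the upper left, where the red channel is brighter on both arrays.

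Contractile genes known as targets of SRF and myocardin were read as a list, chosen with earlier results of these data known. Of 24 listed, 23 were tested (Lmod1 was not). On both arrays 12 were brighter, against 19.9% of all tested genes, and 4 were dimmer, against 19.8%. By the 1.5-fold rule 6 were brighter and 0 dimmer, against 0.49% and 0.523%. Limma called 0, with 7 brighter and 1 dimmer at an unadjusted p under 0.05, and both with processed signals and with the trend and robust options it called 6 brighter and 0 dimmer. Limma's shares over all tested genes were 2.14% and 2.97% at an unadjusted p under 0.05, 0.678% and 0.763% with processed signals, and 1.4% and 1.92% with trend and robust. The median log2 ratio was 0.20, against 0.0047 over all tested genes.

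The 4 genes named first here had larger mean ratios than Myocd. Myh11, which encodes the myosin heavy chain of smooth muscle, gave 2.08 on array 1 and 2.65 on array 2, and Cnn1, calponin, gave 1.65 and 2.17. The smooth muscle actin genes Actg2 (1.42 and 2.08) and Acta2 (1.03 and 2.14) followed. In all 4, as in Myocd, the male pair on array 2 had the larger ratio. For Acta2 the intensities were 22318 and 33634 in the channels labelled Smad4cKO, against 10946 and 7608 in those labelled control. Mylk, the myosin light chain kinase gene (0.87 and 1.00), and Des, the intermediate filament gene desmin (0.71 and 0.71), completed the 6. Of the other 17 tested genes of the list, 6 were brighter and 4 dimmer on both arrays, and 7 had opposite signs. Csrp1, a LIM-domain gene of smooth muscle, gave 0.32 and 0.81 (limma unadjusted p = 0.0140), and Tagln, the transgelin gene, gave 0.07 and 0.53. Itga1, an integrin gene, gave -0.47 and -0.23 (limma unadjusted p = 0.0475), and Synpo2, whose product binds actin in muscle, gave -0.91 and -0.05. Opposite signs were found for Vcl (-0.04 and 0.12), Tpm1 (-0.17 and 0.20) and Myl6 (-0.59 and 0.80). All of these but the first 4 named were chosen after their values were seen.

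SRF targets of the growth-response type and those of the myocardin-related coactivators were read as a list too. Of 20 tested, 2 were brighter and 7 dimmer on both arrays, against 19.9% and 19.8% of all tested genes. Signs were opposite in 11, against 60.3% of all tested genes. In these 11 of 20 the red channel was brighter on both arrays, against 28.6% of all tested genes. Dye and sex cannot be told apart here either. The list's median was -0.56 on array 1 and 0.36 on array 2. By the 1.5-fold rule 0 were brighter and 0 dimmer. Limma called 0 in either direction, with 1 brighter and 2 dimmer at an unadjusted p under 0.05, and with processed signals it also called 0, while with the trend and robust options it called 1 brighter and 1 dimmer. Over all tested genes the shares were 0.49% and 0.523% by the 1.5-fold rule and 2.14% and 2.97% at limma's unadjusted p under 0.05. They were 0.678% and 0.763% with processed signals, and 1.4% and 1.92% with trend and robust. Opposite signs were found for Fos (-1.13 and 0.62), Egr1 (-1.01 and 0.43) and the cytoplasmic actin gene Actg1 (-0.89 and 1.21), genes picked with their values in view. Among genes with 1 sign, Fhl1, a LIM-domain gene of muscle, gave 0.41 and 0.60. Ankrd1 (-0.61 and -0.32), Ccn1 (-0.70 and -0.26) and Ccn2 (-0.34 and -0.19), which are also known as targets of TEAD factors with YAP, had ratios below 0 on both arrays and passed neither threshold.

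**Figure D4:**
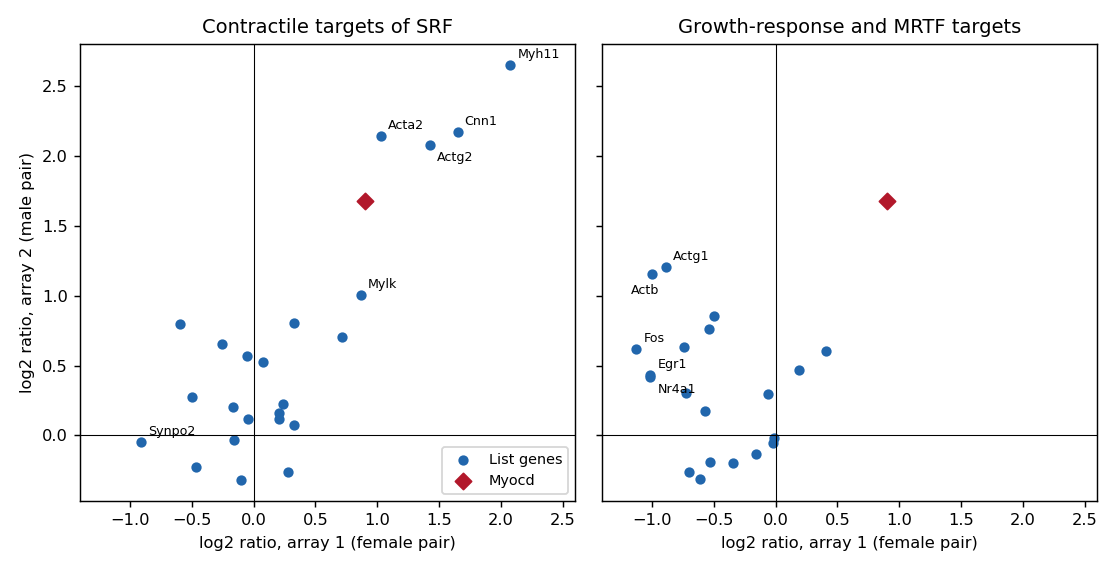
Log2 ratios on array 2 against array 1 for contractile targets of SRF (left, 23 genes) and for growth-response and myocardin-related targets (right, 20 genes), with Myocd as a diamond in both panels. Myh11, Cnn1, Actg2 and Acta2 lie with Myocd in the upper right on the left, and on the right Actb and Actg1 lie far into the upper left. On the right 11 of the 20 genes have opposite signs, against 60.3% of all tested genes. These 11 lie in the upper left, where the red channel is brighter on both arrays, as in 28.6% of all tested genes.

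Cofactors that modify SRF and myocardin held both directions. Of 16 tested, 1 was brighter and 2 dimmer by the 1.5-fold rule, and limma called 0, with 2 brighter and 2 dimmer at an unadjusted p under 0.05, 0 brighter and 2 dimmer with processed signals, and 2 brighter and 2 dimmer with the trend and robust options. The shares of all tested genes, brighter and dimmer, were 0.49% and 0.523% by the 1.5-fold rule. They were 2.14% and 2.97% at limma's unadjusted p under 0.05, 0.678% and 0.763% with processed signals, and 1.4% and 1.92% with trend and robust. Hopx, a homeodomain-only gene that antagonises SRF in heart, gave 0.59 and 0.82. Hand2, a helix-loop-helix gene of neural crest and mesenchyme, gave -0.83 and -0.64. Klf4, a repressor of contractile genes, changed sign (-0.45 and 0.42; chosen after its values were seen). Fhl1 stands in this list too.

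Relatives of the 9 genes were mostly close to 0. Of 11 tested, 2 were brighter and 1 dimmer on both arrays and 0 passed the 1.5-fold rule or limma, with 0 brighter and 1 dimmer at an unadjusted p under 0.05 and 0 and 1 called by limma with processed signals and with the trend and robust options. Over all tested genes 19.9% were brighter and 19.8% dimmer on both arrays, and 0.49% and 0.523% by the 1.5-fold rule. Limma's shares were 2.14% and 2.97% at an unadjusted p under 0.05, 0.678% and 0.763% with processed signals, and 1.4% and 1.92% with trend and robust. Gata1, a gene of red blood cell precursors, gave -0.52 and -0.51, Tead1 gave 0.07 and 0.23, and Gata5 gave 0.02 and 0.14. Among 13 tested TEAD cofactors and Hippo pathway genes, 0 passed the 1.5-fold rule or limma, 0 and 1 had an unadjusted p under 0.05, and limma called 0 with processed signals and 0 with the trend and robust options. Amotl2 (-0.52 and -0.26), Lats2 (-0.40 and -0.12), Mob1a (0.20 and 0.16) and Sav1 (0.10 and 0.34) had 1 sign on both arrays.

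Among 18 tested transcription factors of the ureteric mesenchyme, 0 were brighter and 3 dimmer by the 1.5-fold rule, and limma called 0, with 1 brighter and 4 dimmer at an unadjusted p under 0.05. With processed signals limma called 0 brighter and 2 dimmer, and with the trend and robust options 0 brighter and 3 dimmer. The shares of all tested genes, brighter and dimmer, were 0.49% and 0.523% by the 1.5-fold rule. They were 2.14% and 2.97% at limma's unadjusted p under 0.05, 0.678% and 0.763% with processed signals, and 1.4% and 1.92% with trend and robust. The homeobox genes Hoxd12 (-0.74 and -0.84) and Hoxd11 (-0.73 and -0.61) passed with Hand2. Tcf21, a mesenchymal helix-loop-helix gene, gave 0.92 on array 1 and 0.33 on array 2.

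Genes whose pair of ratios lay nearest to that of Myocd were sought over the 2 arrays by Euclidean distance on the log2 scale. The nearest was Id2, a BMP-induced gene, at 0.22 (0.68 and 1.72 on the arrays). The muscarinic receptor gene Chrm3 lay at 0.32, and Acta2 and Csmd3 each lay at 0.48. With 2 arrays this likeness only describes the position of the ratios.

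Markers of cell types were read beside Myocd, and their part in its ratio was not tested. Over all tested genes, 19.9% were brighter and 19.8% dimmer on both arrays, and 0.49% and 0.523% by the 1.5-fold rule. All 6 smooth muscle markers were brighter on both arrays, with a summed intensity of 73877 and 94329 in the channels labelled Smad4cKO, against 47498 and 44062 in those labelled control. These 6 are also members of the contractile list above, so their values are the same ones and not a separate result. Of 14 tested markers of skeletal and cardiac muscle, in which Myocd or Mef2c are also known, 5 were brighter and 5 dimmer on both arrays, and their sums were 19662 and 20145 in the channels labelled Smad4cKO, against 14593 and 13712 in those labelled control. Without Actc1 the other 13 summed to 7076 and 6751 in the channels labelled Smad4cKO, against 6987 and 7600 in those labelled control. The cardiac actin gene Actc1 (0.73 and 1.13) was brighter by the 1.5-fold rule, the embryonic myosin gene Myh3 (-0.71 and -0.73) was dimmer, and the myogenic factor genes Myod1 (-0.24 and -0.09) and Myog (-0.80 and -0.45) had ratios below 0. These 4 were chosen after their values were seen.

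Of 12 endothelial markers, a cell type in which Mef2c is also known, 7 were brighter and 1 dimmer on both arrays, with sums of 124723 and 119501 in Smad4cKO, against 109905 and 110563 in control channels. For this and the lists below, the shares over all tested genes were 19.9% brighter and 19.8% dimmer on both arrays. By the 1.5-fold rule they were 0.49% and 0.523%. Of 14 neuronal and glial markers, 1 was brighter and 12 dimmer on both arrays, 3 of them (Nefl, Nefm and Prph) by the 1.5-fold rule, with sums of 20731 and 20957 in Smad4cKO, against 30732 and 24775 in control channels. Of 8 kidney markers, 0 were brighter and 4 dimmer, 2 of them (Gdnf and Wt1) by the 1.5-fold rule, with sums of 36903 and 39673 in Smad4cKO, against 48751 and 41008 in control channels. Among urothelium, macrophage and erythroid markers 0 passed that rule. The 15 urothelium markers, 5 brighter and 1 dimmer on both arrays, summed to 259829 and 232835 in Smad4cKO, against 201470 and 244054 in control channels. The 8 macrophage markers, 3 brighter and 0 dimmer, summed to 23367 and 22516 in Smad4cKO, against 18333 and 23985 in control channels. The 9 erythroid markers, 1 brighter and 4 dimmer, summed to 384668 and 556575 in Smad4cKO, against 583993 and 327482 in control channels.

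The promoter windows were searched for the CArG box that SRF binds, in the exact form CCWWWWWWGG with W for A or T. Boxes that depart from this form by any base were not counted. A window ran from 250 bases before to 50 after each start site (RefSeq, GRCm38.p6). The pattern is its own reverse complement, though a single box need not be, so 1 search covers both strands. It was found for 488 of 27025 genes, or 1.81%. Of the 9 genes, 7 have a window in the table, and 1 of them, Srf, holds a box (14.3%). Among contractile genes 4 of 21 held one (19.0%), and among the growth-response and myocardin-related targets 5 of 14 (35.7%). Both lists were made of genes already known as SRF targets, so a share above that of all genes is not a separate result. The other lists held 3 of 13 (SRF cofactors), 2 of 13 (mesenchymal factors), 0 of 8 (relatives) and 0 of 15 (TEAD cofactors).

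The upstream stretches around these boxes are shown for Srf, which is known to bind its own promoter, and for the 4 contractile genes, with the box in capitals. The Srf stretch is chr17:46556187-46556272 on the minus strand. That of Cnn2 is chr10:79988516-79988581 on the plus strand and that of Myl6 is chr10:128493022-128493087 on the minus strand. That of Myl9 is chr2:156775275-156775340 and that of Vcl chr14:20929148-20929208, both on the plus strand.
Srf: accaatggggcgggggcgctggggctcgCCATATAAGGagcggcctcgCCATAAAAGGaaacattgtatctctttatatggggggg
Cnn2: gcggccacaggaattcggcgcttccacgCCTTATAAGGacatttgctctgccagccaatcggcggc
Myl6: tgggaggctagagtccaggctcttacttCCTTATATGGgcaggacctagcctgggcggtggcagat
Myl9: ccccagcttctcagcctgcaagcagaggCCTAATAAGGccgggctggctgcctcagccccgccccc
Vcl: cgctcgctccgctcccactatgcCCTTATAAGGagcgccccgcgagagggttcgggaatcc

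The Srf stretch holds 2 boxes, whose first bases lie at positions -82 and -62 from the start site. The mean log2 ratios of the genes shown were 0.0032 for Srf, -0.09 for Cnn2, 0.11 for Myl6, 0.0075 for Myl9 and 0.04 for Vcl, and none of them passed the 1.5-fold rule. Of the 6 contractile genes that passed it, Cnn1, Acta2, Mylk and Des have windows in the table. These hold no box of the exact form searched, and boxes with a mismatch were not sought. A match describes letters in a window and not a bound site, and no match says only that these letters are not in this window.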

How the data were processed

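Total RNA of E14.5 ureters was hybridised on 2 two-colour arrays, each pairing labelled Smad4cKO with labelled control. The submitters' processing notes name Agilent Feature Extraction 10.7.3.1. In the deposited scanner files each spot has an intensity per channel, a log10 ratio (red over green) with its error, and a p-value for it, per the file headers. The authors' deposited values hold a signed fold per probe, read here as a score. Its log2 values, set against the log2 ratio of the processed signals, gave r = 1.00 (red over green) on array 1 and r = -1.00 (green over red) on array 2, with offsets of -0.00314 and -0.0111 and a median of 1 in each column. By the dye labels it is control over Smad4cKO on both arrays. The labels do not say which software made it.

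Normexp (offset 50) corrected the mean signals for background, and loess normalized each array, control spots having weight 0 (limma 3.58.1, statmod 1.5.0, R 4.3.3, with the package data.table in version 1.17.8). Of 44397 spots, 1377 controls were left out, as were outlier spots (237 and 221 of 43020). Channel intensities were scaled between arrays by Aquantile. Probes well above background in the same labelled group on both arrays were tested (26670 of 39429), and the brightest stood for its gene (21238 genes). Limma tested the ratios against 0 (two-sided, Benjamini-Hochberg, threshold 0.05). The other rule asked for 1.5-fold or more on each array with 1 sign, since turning signs of 2 arrays allows no p below 0.5. Of the probes, 26412 had their accession matched to a current gene name. The limma step was tested on simulated data.

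The members and lists were chosen with earlier results of these data known. From each of the 6 pathway lists up to 4 genes with the same sign on both arrays were named, ordered by the smaller absolute log2 ratio, and for Myocd the 5 nearest genes. Some genes that this rule names are not reported here. Promoter stretches of contractile genes with a box that were not named by this rule (Cnn2, Myl6, Myl9 and Vcl) were added after their values were seen. Alternatives changed the background correction, offset, normalization, filter, probe rule, outliers, empirical Bayes, fold threshold, source of values and arrays used.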

Additional observations from a re-analysis of the deposited data

Results flagged for a closer look

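In 5 of the 9 genes the ratio of labelled Smad4cKO over labelled control was below 0 in the female pair and above 0 in the male pair. The male minus female difference in log2 ratio was 0.60 for Mef2c, 0.58 for Tshz2, 0.40 for Srf, 0.31 for Mkl2 and 0.21 for Mkl1. These differences were not tested, since each sex has 1 array. Sex and dye orientation changed together and cannot be told apart.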

How the results depend on the processing

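The count of the 9 genes past limma and brighter in labelled Smad4cKO was 1 (Myocd) with processed signals, 1 with the authors' deposited values and 1 with limma's trend and robust options, where all tested genes called brighter numbered 144, 72 and 298, against 0 here. The cause was not tested. Processed signals and deposited values carry nearly the same ratios, so their counts are not separate results. At 2-fold on both arrays 0 of the 9 were brighter, since Myocd reached 1.87-fold on array 1. With 1 array left out, the count at 1.5-fold was 1 to 1 brighter and 0 to 1 dimmer (Tshz3 on array 1 alone), and Myocd ranged over 0.90 to 1.68. Tead3 changed sign with the authors' deposited values (log2 ratio 0.0010), and the cause was not tested. Of the other values recomputed, 182 were counted as unchanged. For most this meant the same direction and side of the threshold, or a move smaller than the spread between arrays. The log2 ratios of the 9 genes with 1 array left out were counted as unchanged without such a check. Among them Srf, Mkl1, Mkl2, Tshz2 and Mef2c changed sign with the array used. The limma test is already paired by array, since each array sets 1 Smad4cKO RNA against 1 control RNA and gives 1 ratio. With 2 arrays, of which each has its own sex and dye orientation, the spread of a gene rests on 1 degree of freedom. Signal over background limits the dim Mkl2 probes, at 2.49 to 4.94.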
